A study of Homo sapiens with 6 samples.

Results

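The 10 genes described here encode core parts of the circadian clock and the paired repressors BHLHE40 and BHLHE41. They were chosen by gene symbol from the deposited table of read counts (BHLHE40, BHLHE41, CLOCK, PER1, PER2, PER3, CRY1, CRY2, NR1D2 and DBP), and all 10 were found among its 60708 genes. The study compared Caki-1 cells with and without VHL by RNA-seq. Caki-1 is a human clear cell renal carcinoma line grown from a metastasis. The VC cells had a wild-type VHL genotype and had been infected with the lentiCRISPR vector alone (3 samples), and the VHL-KO cells had been infected with lentivirus carrying a guide RNA against VHL (3 samples). Per the methods, the knockout cells were selected with puromycin and then screened for pure knockout clones, so a property of 1 clone and an effect of VHL loss cannot be told apart. Nothing in the sources says that the 3 samples of a group were separate cultures, and p-values measure only the spread between these samples, which may be technical. The time of day at harvest and any synchronization of the cells are not given in the sources used here. A shift in the phase of a rhythm and a change in its mean level therefore cannot be told apart.

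The clock is a loop of transcription and repression. CLOCK pairs with BMAL1 (ARNTL in the annotation used here) and binds E-box sequences, where it turns on the PER and CRY genes, whose proteins return to the nucleus and repress it. BHLHE40 and BHLHE41 (also called DEC1 and DEC2) repress at the same E-boxes, NR1D2 (REV-ERB beta) represses BMAL1, and DBP is a direct output of the loop that activates genes through D-boxes. BHLHE40 is also known as a target of the hypoxia-inducible factors (HIF), the proteins that VHL marks for degradation.

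Sequencing depth ran from 22628246 to 34881739 reads on genes. Values are given as read counts or as CPM, which are counts scaled to library size with edgeR's TMM factors, and changes as log2 fold changes of VHL-KO over VC with their standard error (SE) from edgeR. The test was edgeR's two-sided quasi-likelihood test with Benjamini-Hochberg (BH) adjustment over 17401 genes, those reaching 10 reads in 1 or more samples, at a threshold of 0.05. Gene positions are those of GENCODE release 44 on GRCh38, matched by gene identifier. The edited gene VHL had 42.6, 37.8 and 40.1 CPM in the VC samples against 34.8, 30.4 and 30.5 CPM in the VHL-KO samples. Its mRNA was thus lower in each VHL-KO sample but still abundant, with a log2 fold change of -0.33 (SE 0.11, edgeR BH-adjusted p = 0.0109). A gene-level count does not show whether a transcript carries the edit. Of the exonic bases of VHL, 23.5% lie under a gene on the opposite strand, and the counting is not stated to use strand. This call on VHL was lost with upper quartile factors, without VC 1 and without VHL-KO 2, and with offsets for GC content and length (log2 fold change -0.16, edgeR BH-adjusted p = 0.0971). Targets of HIF were measured as well. Of 10 such genes, 8 were called higher and 2, EGLN3 and EGLN1, lower, beside 28.5% higher and 31.2% lower among all tested genes, the call on EGLN1 being lost with upper quartile factors, with the offsets and without VC 2, VC 3, VHL-KO 1 or VHL-KO 3. The count of EGLN1 is uncertain, since 55.8% of its exonic bases are shared with another gene on the same strand. CA9 had 0, 0 and 2 counts in VC against 288, 247 and 233 counts in VHL-KO samples. NDRG1 rose by 6.03, ADM by 3.55 and VEGFA by 2.48 on the log2 scale.

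Markers of renal epithelium were checked against the label. PAX8, KRT8, KRT18 and MET all lay above 100 CPM in every sample, EPCAM and KRT19 stayed below 2 CPM in every sample, and PAX2 had 0 counts in all 6 samples. CA12 rose from 4.12 to 63.4 CPM. PAX8, KRT8 and KRT18 were called higher, by 0.52, 0.51 and 0.37 on the log2 scale, the call on KRT18 being lost with library size alone. With offsets for GC content and length these values were 0.37, 0.32 and 0.14. EPCAM was called lower (log2 fold change -1.42, edgeR BH-adjusted p = 0.00477), MET was not called, and a call of KRT19 as higher was lost under 11 of 15 alternatives. Markers of leukocytes summed to at most 0.337 CPM in any sample, with CD3E at 0 counts throughout, and markers of endothelial cells to at most 0.711 CPM. Of the latter only PECAM1 passed the count filter, with 1, 5 and 0 counts in VC against 14, 7 and 9 in VHL-KO samples. It passed the count filter through VHL-KO 1 alone and was not tested without that sample, so its counts are given without a test. Of the 4 fibroblast markers, DCN and PDGFRA had at most 4 counts in any sample. PDGFRB fell from 8.90 to 2.32 CPM, a log2 fold change of -1.94 (edgeR BH-adjusted p = 7.66e-09), and COL1A1 fell by 0.42 on the log2 scale. With offsets for GC content and length the log2 fold changes were -2.21 for PDGFRB and -0.77 for COL1A1. The list summed to between 37.2 and 47.3 CPM in VC and between 25.5 and 30.0 CPM in VHL-KO samples, most of it from COL1A1, a gene that carcinoma lines can also express. The part of these markers in other results was not tested. In bulk RNA, fewer cells that express a gene and less mRNA per cell cannot be told apart.

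All 10 clock and BHLHE genes passed the count filter. DBP, BHLHE40 and CRY2 were higher in VHL-KO cells, CRY1, BHLHE41 and CLOCK were lower, and PER1, PER2, PER3 and NR1D2 were not called. Across all tested genes, 28.5% were called higher and 31.2% lower, so 3 genes in each direction are close to the background of this comparison. For 5 of the 10 genes (BHLHE40, BHLHE41, CRY1, CRY2 and DBP) the VHL-KO and VC samples did not overlap, beside 64.7% of all tested genes. The median log2 fold change of the 10 genes was 0.03 and that of all tested genes -0.01. The changes differed widely in size. DBP was 6.34-fold higher and CRY1 5.28-fold lower. For DBP, BHLHE40, CRY1 and CRY2, the call and direction were the same under all 15 alternatives. With library size as the only scaling, 3764 of all tested genes were called higher and 6737 lower, and the median of all genes moved to -0.20, while upper quartile factors moved it to 0.10.

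**Figure D1:**
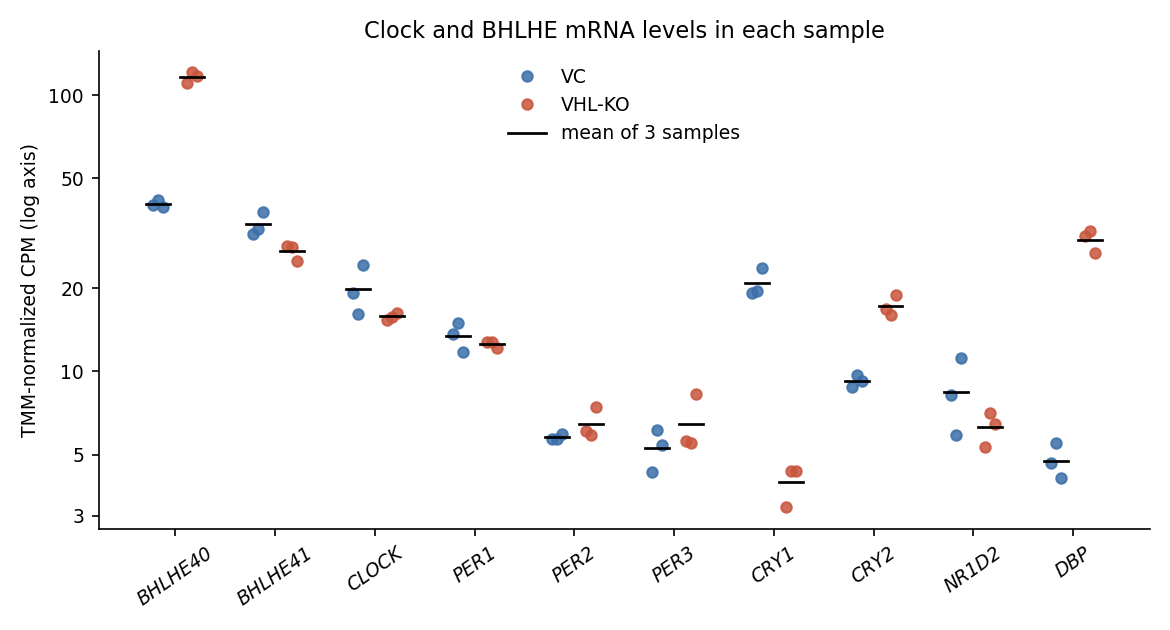
Each point is 1 sample, in TMM-normalized CPM on a log axis, with VC in blue, VHL-KO in red and the mean of 3 samples as a bar. The VHL-KO samples of BHLHE40, CRY2 and DBP lie above every VC sample and those of CRY1 and BHLHE41 below, while the groups overlap for CLOCK, NR1D2 and the PER genes.

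The plot of levels by sample also shows how tightly the replicates lay. BHLHE40 had the smallest spread of the 10, with only 2.48% of all tested genes below it, and NR1D2 the largest.

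CLOCK (ENSG00000134852.15, chr4:55427903-55546909, minus strand) encodes the activator that binds E-boxes with BMAL1. It had 657, 478 and 918 counts in VC samples against 411, 340 and 347 counts in VHL-KO samples, or 19.2, 16.1 and 24.2 against 15.4, 15.8 and 16.3 CPM. VC 2 lay among the VHL-KO samples and VC 3 far above them. The means were 19.8 ± 4.08 and 15.8 ± 0.447 CPM (SD, n = 3), with a log2 fold change of -0.33 (SE 0.14) that just passed the threshold (edgeR BH-adjusted p = 0.0481). Only 4 of 15 alternatives kept this call. Without VC 3 the log2 fold change was -0.14 (edgeR BH-adjusted p = 0.365), and with offsets for GC content and length it was 0.20 (edgeR BH-adjusted p = 0.0743). A fall of CLOCK mRNA is thus not established by these samples.

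Of the other activating subunits, ARNTL2 fell most. ARNTL2 (BMAL2), a paralogue of BMAL1, had 39.6, 28.9 and 44.9 CPM in VC against 14.1, 12.4 and 11.6 CPM in VHL-KO samples. Every VHL-KO sample lay far below every VC sample, and the log2 fold change was -1.57 (SE 0.14, edgeR BH-adjusted p = 1.42e-09). NPAS2, which can take the place of CLOCK, fell by 0.33 on the log2 scale (edgeR BH-adjusted p = 0.00565), a call lost with upper quartile factors. ARNTL itself had 273, 221 and 288 counts in VC against 139, 139 and 117 counts in VHL-KO samples. The groups did not overlap in counts or in CPM, but its call (log2 fold change -0.43, edgeR BH-adjusted p = 0.0301) was lost under 6 of 15 alternatives, offsets for GC content and length among them (-0.19, edgeR BH-adjusted p = 0.242).

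The PER genes encode the repressors whose accumulation times the loop, and none was called. PER1 (ENSG00000179094.16, chr17:8140472-8156506, minus strand) had 13.6, 14.9 and 11.7 CPM in VC against 12.7, 12.7 and 12.1 CPM in VHL-KO samples. The VHL-KO samples lay within the range of the VC samples, with a log2 fold change of -0.10 (SE 0.14, edgeR BH-adjusted p = 0.572) that was 0.015 with upper quartile factors and 0.0033 without VC 2. With offsets for GC content and length the value was -0.49 (edgeR BH-adjusted p = 0.000337). The exons of PER1 hold 61.9% G and C, and the 694 tested genes within 1 percentage point of it had a median log2 fold change of 0.46. PER1 lay at the 25.4th percentile of those genes. PER2 (ENSG00000132326.12, chr2:238244044-238290102, minus strand) had 5.68, 5.69 and 5.93 CPM in VC against 6.06, 5.89 and 7.46 CPM in VHL-KO samples. VHL-KO 3 alone stood clearly apart and the groups overlapped, and the log2 fold change was 0.16 (SE 0.17, edgeR BH-adjusted p = 0.424), or -0.029 with library size alone, 0.055 without VHL-KO 3 and 0.073 with offsets for GC content and length. PER3 (ENSG00000049246.15, chr1:7784291-7845177, plus strand) had 4.33, 6.13 and 5.40 CPM in VC against 5.58, 5.52 and 8.25 CPM in VHL-KO samples. Again VHL-KO 3 was the highest and the groups overlapped, with a log2 fold change of 0.28 (SE 0.19, edgeR BH-adjusted p = 0.213) that passed the threshold with offsets for GC content and length (0.57, edgeR BH-adjusted p = 0.00969). Without VHL-KO 3 it was 0.075 and without VC 1 it was 0.17. Of its exonic bases, 16.6% lie under genes on the opposite strand, and the counting is not stated to use strand.

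The cryptochromes CRY1 and CRY2 bind CLOCK and BMAL1 and hold them inactive, and here they changed in opposite directions. CRY1 (ENSG00000008405.12, chr12:106991364-107093549, minus strand) had 659, 582 and 901 counts in VC against 86, 94 and 93 counts in VHL-KO samples. No VHL-KO sample came near a VC sample. The level was 20.9 ± 2.48 CPM in VC against 3.98 ± 0.658 CPM in VHL-KO cells (SD, n = 3), a log2 fold change of -2.40 (SE 0.16, edgeR BH-adjusted p = 7.82e-12). CRY2 (ENSG00000121671.12, chr11:45847118-45883248, plus strand) had 300, 289 and 350 counts in VC against 450, 345 and 403 counts in VHL-KO samples, or 8.79, 9.73 and 9.22 against 16.8, 16.0 and 18.9 CPM. Each VHL-KO sample lay above each VC sample once library size was taken into account. CRY2 was 1.87-fold higher (log2 fold change 0.90, SE 0.14, edgeR BH-adjusted p = 4.92e-06). Among the 1604 tested genes within 1 percentage point of the GC content of CRY1 (41.6%), CRY1 lay at the 2.49th percentile of log2 fold changes, where the median was -0.35. With offsets for GC content and length, the log2 fold changes were -1.94 for CRY1 and 0.74 for CRY2.

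BHLHE40 and BHLHE41 are basic helix-loop-helix repressors of the Orange type, and BHLHE40 was the most abundant of the 10 genes in both groups, at 11.5 ± 0.354 CPM per kilobase of exon in VC and 33.1 ± 1.41 in VHL-KO cells (SD, n = 3). BHLHE40 (ENSG00000134107.5, chr3:4979437-4985323, plus strand) had 1364, 1243 and 1499 counts in VC against 2968, 2608 and 2507 counts in VHL-KO samples. All VHL-KO samples were far above all VC samples. The level rose from 40.4 ± 1.24 to 117 ± 4.97 CPM (SD, n = 3), a log2 fold change of 1.53 (SE 0.09, edgeR BH-adjusted p = 1.28e-12), and offsets for GC content and length gave 1.55. Its exons share 12.8% of their bases with BHLHE40-AS1 on the opposite strand, which had at most 14 counts in any sample. BHLHE41 (ENSG00000123095.6, chr12:26120030-26125037, minus strand) did not rise with it. It had 31.6, 32.9 and 37.7 CPM in VC against 28.5, 28.2 and 25.05 CPM in VHL-KO samples. The groups were separate but close, with a log2 fold change of -0.32 (SE 0.11, edgeR BH-adjusted p = 0.0184). This call was lost with upper quartile factors (-0.21, edgeR BH-adjusted p = 0.121), without VC 3 (-0.22, edgeR BH-adjusted p = 0.0927) and without VHL-KO 3 (-0.26, edgeR BH-adjusted p = 0.0897), and over all 15 alternatives the adjusted p ran from 0.000727 to 0.121. The log2 fold change was -0.21 with offsets for GC content and length (edgeR BH-adjusted p = 0.0489) and -0.52 with library size alone (edgeR BH-adjusted p = 0.000727).

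The promoters of this pair are shown because the paralogues moved apart although both hold the same kinds of letters. All 10 genes were found in the RefSeq promoter table (GRCh38.p14), of which the 250 bases before each gene's start were searched on both strands. For 8 of the 10 genes this start is the GENCODE gene start, whereas the RefSeq starts of PER1 and PER2, and so their windows, lie inside the longer GENCODE genes. The letters searched were CACGTG (E-box), ACGTG and GCGTG (core of the hypoxia response element bound by HIF), TTATGTAA (D-box), and AGGTCA and GGGTCA (core of the element bound by ROR and REV-ERB proteins, called ROR core). CACGTG contains ACGTG on both strands, so each E-box also counts as a pair of hypoxia cores. Capitals mark E-box, hypoxia core and D-box letters on either strand. The BHLHE40 window is chr3:4979187-4979436 (plus strand) and the BHLHE41 window chr12:26125038-26125287 (minus strand).
BHLHE40: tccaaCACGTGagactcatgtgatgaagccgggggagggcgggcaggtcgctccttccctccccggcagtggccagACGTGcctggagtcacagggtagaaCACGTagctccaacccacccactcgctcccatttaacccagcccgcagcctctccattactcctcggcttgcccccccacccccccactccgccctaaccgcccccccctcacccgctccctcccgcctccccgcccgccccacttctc
BHLHE41: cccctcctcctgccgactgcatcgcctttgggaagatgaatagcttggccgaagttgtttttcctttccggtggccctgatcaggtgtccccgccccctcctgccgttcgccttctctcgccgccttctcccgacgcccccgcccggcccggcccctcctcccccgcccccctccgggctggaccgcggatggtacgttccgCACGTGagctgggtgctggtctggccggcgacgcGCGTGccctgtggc
The BHLHE40 window holds 1 E-box, which begins 245 bases before the start, and 2 more hypoxia cores, at 174 and 149 bases before it. The BHLHE41 window holds 1 E-box at 48 bases and 1 more hypoxia core at 14 bases before the start. An E-box is present in 6.34% of the 35116 promoters of the table and a hypoxia core outside an E-box in 40.2%. A match describes the letters and does not show that a factor binds.

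NR1D2 (ENSG00000174738.13, chr3:23945286-23980617, plus strand) encodes REV-ERB beta, a nuclear receptor that represses BMAL1. It had 281, 175 and 423 counts in VC against 142, 153 and 137 counts in VHL-KO samples, or 8.23, 5.89 and 11.1 against 5.32, 7.09 and 6.43 CPM. VC 2 lay among the VHL-KO samples, and the VC samples were widely spread. The log2 fold change of -0.43 (SE 0.20) missed the threshold (edgeR BH-adjusted p = 0.0634). The value depended on single VC samples, at -0.16 without VC 3 (edgeR BH-adjusted p = 0.492) and past the threshold without VC 2 (-0.62, edgeR BH-adjusted p = 0.00324). It also passed with library size alone (-0.63, edgeR BH-adjusted p = 0.0162) and without the count filter (-0.47, edgeR BH-adjusted p = 0.0275). With offsets for GC content and length it was 0.13 (edgeR BH-adjusted p = 0.46). Its paralogue NR1D1 (REV-ERB alpha) was clearly higher. NR1D1 had 19.4, 21.8 and 19.6 CPM in VC against 44.5, 35.2 and 37.9 CPM in VHL-KO samples. All VHL-KO samples lay above the VC samples, with a log2 fold change of 0.95 (SE 0.12, edgeR BH-adjusted p = 1.94e-07), or 0.54 with offsets for GC content and length. Of its exonic bases, 18.0% lie under THRA on the opposite strand. RORA and RORB, receptors that activate through the same element, were barely present, at no more than 7 counts in any sample, and did not pass the count filter. Without that filter RORB, with 4, 4 and 7 counts in VC against 0 in every VHL-KO sample, was called lower (edgeR BH-adjusted p = 0.0271).

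DBP (ENSG00000105516.11, chr19:48630030-48637379, minus strand), the D-box activator driven by CLOCK and BMAL1, changed most of the 10 genes. It had 159, 163 and 156 counts in VC against 826, 696 and 572 counts in VHL-KO samples. Every VHL-KO sample lay far above every VC sample. The level rose from 4.75 ± 0.693 to 30.0 ± 2.83 CPM (SD, n = 3), a log2 fold change of 2.66 (SE 0.15, edgeR BH-adjusted p = 1.57e-13), or 2.38 with offsets for GC content and length. Of its exonic bases, 10.2% lie under SPHK2 on the opposite strand, whose log2 fold change was 0.16 (edgeR BH-adjusted p = 0.256). Genes around DBP were higher too. Of the 10 nearest tested genes, all within 0.219 Mb, 9 were called higher and none lower (28.5% and 31.2% of all tested genes), with a median log2 fold change of 1.01 and the largest at CA11 (3.76). These neighbour values are without offsets for GC content and length, and the part of GC content in them was not tested. The promoter windows of DBP, chr19:48637380-48637629 (minus strand), and of CRY1, chr12:107093550-107093799 (minus strand), are shown as those of the genes with the largest rise and the largest fall among the 10.
DBP: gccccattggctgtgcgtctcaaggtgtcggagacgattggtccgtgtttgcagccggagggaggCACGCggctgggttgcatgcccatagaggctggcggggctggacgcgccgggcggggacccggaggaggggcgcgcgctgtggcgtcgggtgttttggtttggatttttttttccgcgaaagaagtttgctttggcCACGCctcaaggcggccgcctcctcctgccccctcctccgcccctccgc
CRY1: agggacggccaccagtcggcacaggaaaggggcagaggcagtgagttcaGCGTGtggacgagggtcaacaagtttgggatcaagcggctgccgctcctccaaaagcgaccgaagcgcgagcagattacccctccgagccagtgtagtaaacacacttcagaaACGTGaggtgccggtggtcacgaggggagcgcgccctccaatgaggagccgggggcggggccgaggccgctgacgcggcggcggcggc
The DBP window holds no CACGTG and 2 hypoxia cores, at 185 and 49 bases before the start. The CRY1 window also holds no CACGTG and 2 hypoxia cores, at 201 and 88 bases, with 1 ROR core at 189 bases, which is not in capitals.

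Other clock transcription factors were measured beside DBP. CIART, a repressor of CLOCK and BMAL1, had 62, 87 and 78 counts in VC against 281, 202 and 229 counts in VHL-KO samples. The groups were well apart, at 2.27 ± 0.586 and 10.2 ± 0.740 CPM (SD, n = 3), with a log2 fold change of 2.18 (SE 0.20, edgeR BH-adjusted p = 8.99e-10). TEF, which like DBP is a PAR bZIP activator, rose by 0.93 on the log2 scale (edgeR BH-adjusted p = 8.26e-07), and NFIL3, the repressor at D-boxes, by 0.62 (edgeR BH-adjusted p = 2.7e-05). HLF, the remaining PAR bZIP factor, had a log2 fold change of 0.12 (edgeR BH-adjusted p = 0.606), or 0.41 with offsets for GC content and length (edgeR BH-adjusted p = 0.0418). Its direction was reversed with library size alone (-0.072) and without VHL-KO 3. Of 11 other clock transcription factors, 8 were tested, of which 4 were called higher (CIART, NR1D1, TEF and NFIL3) and 3 lower (ARNTL2, ARNTL and NPAS2), beside 28.5% higher and 31.2% lower among all tested genes. All 3 falls were thus among the activating subunits, which describes these 8 genes and is not a test of either group.

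**Figure D2:**
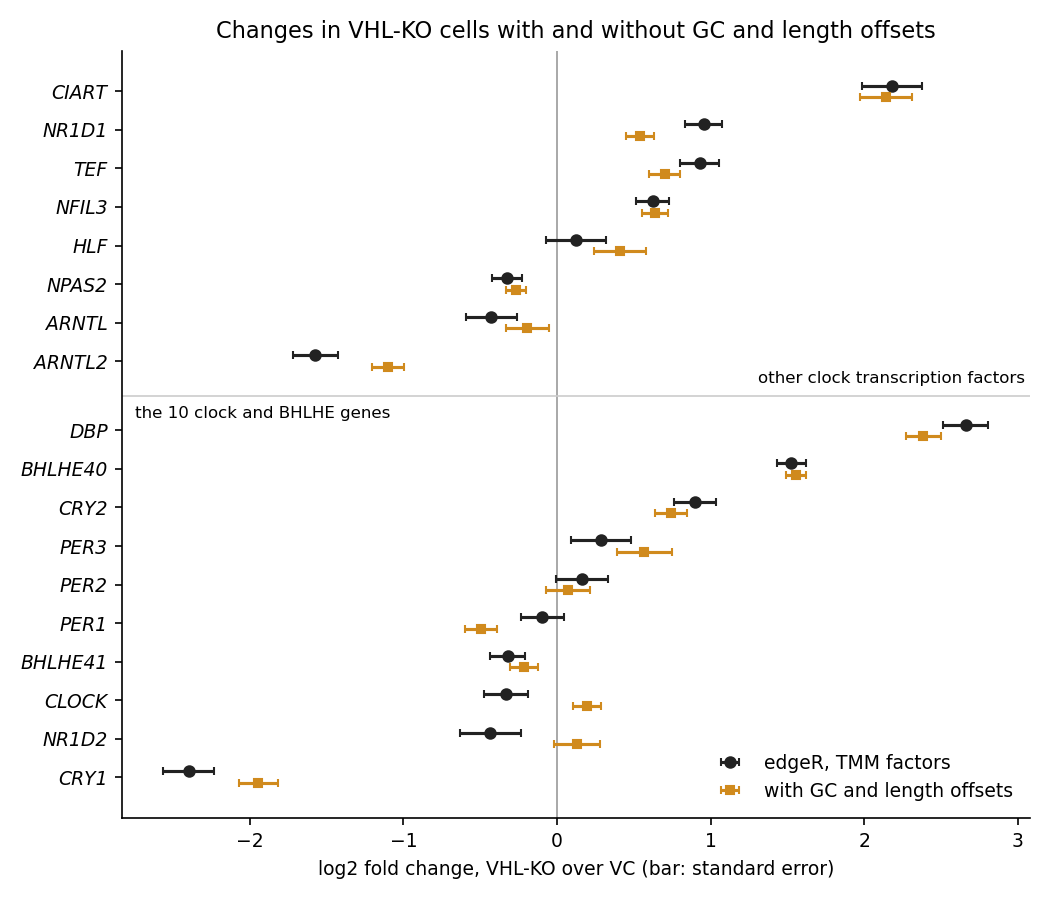
Log2 fold change of VHL-KO over VC on the x axis for the 10 clock and BHLHE genes and for 8 other clock transcription factors, as points with the standard error as a bar, from edgeR with TMM factors (black circles) and with offsets for GC content and length (orange squares). DBP, CIART, BHLHE40 and CRY1 lie far from 0 either way, while CLOCK and NR1D2 change sign.

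The plot of fold changes sets both estimates side by side. With the offsets, 4 of the 10 genes were called higher and 3 lower, beside 29.6% and 30.5% of all tested genes. PER3 joined the genes called higher, PER1 those called lower, and CLOCK left them.

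Since paralogues changed differently, the makeup of each family was compared within samples, with levels per kilobase of exon (CPM per kb). BHLHE40 made up 56.6 ± 2.71% of the summed level of BHLHE40 and BHLHE41 in VC but 82.4 ± 1.34% in VHL-KO cells (SD, n = 3). Their summed level was 20.3 ± 0.731 and 40.2 ± 1.37 CPM per kb. CRY1 made up 74.4 ± 2.35% of the cryptochrome level in VC but 23.0 ± 3.12% in VHL-KO cells, so the more abundant cryptochrome mRNA was CRY1 in every VC sample and CRY2 in every VHL-KO sample. The summed cryptochrome level was 5.86 ± 0.525 and 3.61 ± 0.305 CPM per kb. In the PER family PER1 was the largest part in every sample, at 56.6 ± 3.41% and 51.5 ± 5.07%, and the summed PER level was 3.38 ± 0.268 and 3.50 ± 0.265 CPM per kb.

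Ratios between paralogues do not depend on library size factors, and were tested by a two-sided exact permutation test over the 6 samples, for which 0.1 is the smallest p that 3 against 3 samples allow. The log2 ratio of CRY1 to CRY2 counts was 1.13, 1.01 and 1.36 in VC against -2.38, -1.87 and -2.11 in VHL-KO samples. The ratio was positive in every VC and negative in every VHL-KO sample, a difference of -3.29 or 9.77-fold (exact permutation p = 0.1, BH-adjusted 0.2 over 4 ratios). The log2 ratio of BHLHE41 to BHLHE40 was -0.34, -0.35 and -0.07 in VC against -1.96, -2.10 and -2.23 in VHL-KO samples. These groups did not overlap either, with a difference of -1.85 (exact permutation p = 0.1, BH-adjusted 0.2). The ratio of PER3 to PER1 differed by 0.37 and that of PER2 to PER1 by 0.25 on the log2 scale, each with overlapping groups (exact permutation p = 0.3, BH-adjusted 0.3). Without VHL-KO 3 these differences were 0.15 and 0.12, without VC 1 that of PER3 to PER1 was 0.22, and without VC 2 that of PER2 to PER1 was 0.16. With counts corrected for GC content and length they were 1.06 and 0.57, so the PER ratios do depend on that correction, while those of CRY1 to CRY2 and BHLHE41 to BHLHE40 were -2.68 and -1.76 with it.

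**Figure D3:**
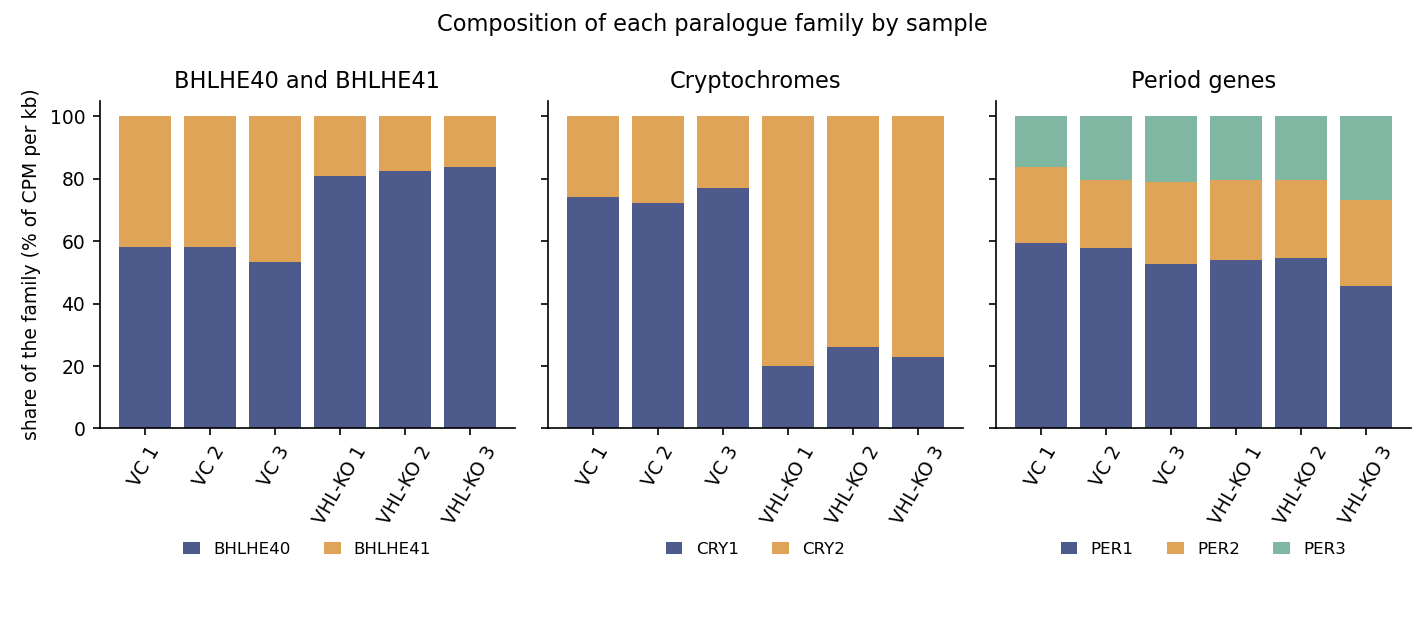
Share of each paralogue in the summed level of its family (percent of CPM per kb, stacked to 100) in each of the 6 samples. On average CRY1 makes up 74.4% of the cryptochromes in VC and 23.0% in VHL-KO samples, and BHLHE40 makes up 56.6% and 82.4% of its pair, while PER1 is the largest part of the PER genes in every sample.

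The stacked shares show that replicates of a group were alike in both pairs that shifted, with CRY1 between 72.3% and 76.9% in VC and between 19.9% and 26.1% in VHL-KO samples.

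Fold changes in this comparison followed the GC content of the genes. Over 12948 genes with a mean of at least 1 CPM, the log2 fold change rose by 0.42 for each 10 percentage points of GC content (Spearman rho 0.40 across genes of the same 6 libraries, which are not independent). Over all tested genes with a known GC content, those under 1 CPM included, the median log2 fold change was -0.28 for genes with under 35% G and C and -0.48 for those with 35 to 40%, and rose from there to 0.51 for those with 60 to 65% and 0.52 for those over 65%. The VC replicates also differed among themselves in this respect. Relative to the mean of its own group, the slope was 0.17 for VC 2 and -0.16 for VC 3 per 10 percentage points, while VC 1 and all VHL-KO samples had slopes between -0.014 and 0.0092. CLOCK (38.2% G and C) and NR1D2 (39.1%) had their lowest VC value in VC 2 and their highest in VC 3. PER1 (61.9%) had the reverse order, as did BHLHE40 and DBP. The other genes had neither order. BHLHE41, PER2 and CRY1 were lowest in VC 1 and highest in VC 3, and PER3 and CRY2 lowest in VC 1 and highest in VC 2. The part of GC content in the changes of these genes was not tested. BHLHE40 (50.7%), CRY2 (55.2%), DBP (58.2%) and CRY1 (41.6%) kept their direction and call with the offsets.

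**Figure D4:**
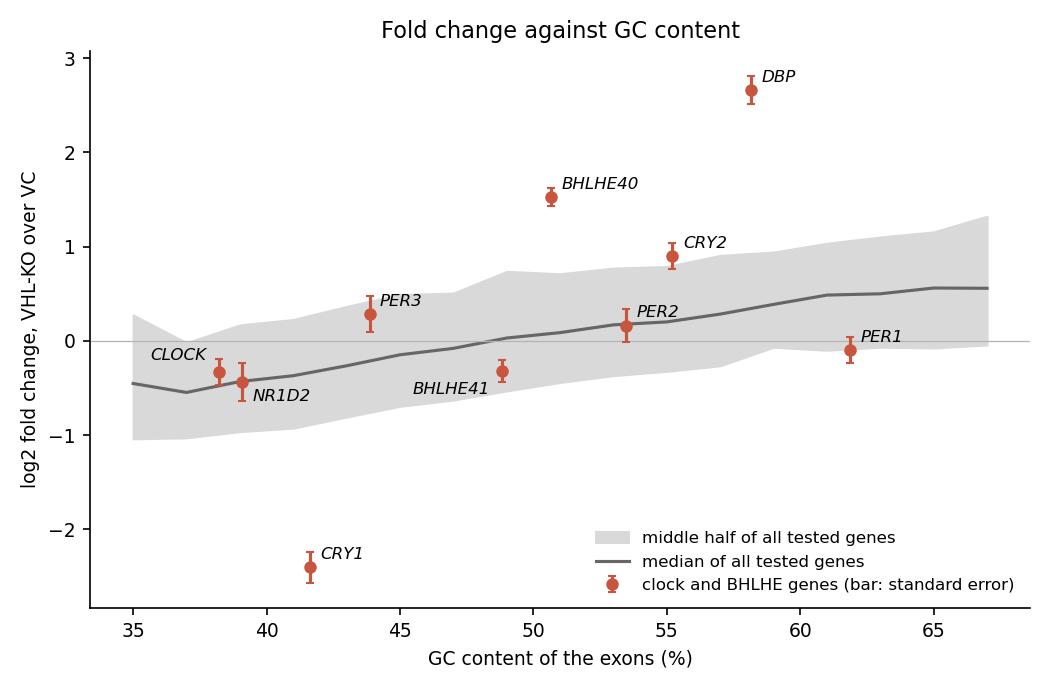
Log2 fold change of VHL-KO over VC against the GC content of the exons in percent, for the 10 clock and BHLHE genes (red points, standard error as a bar) and for all tested genes (median as a line, middle quartiles as a grey band). DBP, BHLHE40 and CRY1 lie well outside the band, whereas CLOCK and NR1D2 lie near the median line of genes with their GC content.

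The plot against GC content sets each of the 10 genes beside genes of like composition. DBP lay at the 96.1st percentile of tested genes within 1 percentage point of its GC content, BHLHE40 at the 90.2nd and CRY1 at the 2.49th, while CLOCK, PER2 and NR1D2 lay between the 49.1st and the 60.7th. CRY2 lay at the 77.6th, PER3 at the 71.2nd, BHLHE41 at the 34th and PER1 at the 25.4th.

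Spread between replicates is of interest because clock mRNAs cycle in cells that share a phase. The within-group SD of log2 CPM of NR1D2 was 0.36, larger than that of 71.0% of all tested genes and of 93.1% of the 1000 genes of most similar abundance. For PER3 the SD was 0.29, at the 64.8th percentile of all tested genes. The remaining 8 genes lay between the 2.48th and the 52.4th percentile. Among genes of like abundance, CLOCK lay at the 79th and PER3 at the 76.7th percentile. For NR1D2 and CLOCK the SD was 2.63 and 4.08 CPM in VC against 0.897 and 0.447 CPM in VHL-KO samples. Genes of like abundance were not matched on GC content, in which VC 2 and VC 3 differed. The part of GC content in this spread was not tested.

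Neighbours on the chromosome were compared because BHLHE40 and NR1D2 lie on chromosome 3, as VHL does. Of the 10 tested genes nearest to BHLHE40, 4 were called higher and 4 lower (28.5% and 31.2% of all tested genes), with a median log2 fold change of -0.30. Among those called higher, BHLHE40-AS1, EGOT and ITPR1-DT had mean levels of only 0.331, 0.188 and 0.124 CPM, so their calls rest on few reads. The remaining one, ITPR1, rose by 0.44 on the log2 scale (edgeR BH-adjusted p = 0.0462). Around NR1D2, 2 were called higher and 4 lower, and around BHLHE41 also 2 and 4. None was called higher and 6 were called lower around CRY1, where the median was -0.63. Of the 5 genes whose neighbours were compared, DBP alone lay among neighbours that mostly rose. All neighbour counts and medians are without offsets for GC content and length, and the part of GC content in them was not tested.

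In the promoter windows, an E-box was found for 3 of the 10 genes (BHLHE40, BHLHE41 and PER1), of which 1 rose, 1 fell and 1 was not called. CACGTG was the only form of the E-box searched, so a gene without it may hold another form. Hypoxia cores outside an E-box were found for 6 of the 10 genes, beside 40.2% of all promoters. A D-box was found for PER3, as in 0.834% of all promoters, and a ROR core for 4 genes (PER1, CRY1, CRY2 and NR1D2), beside 22.4%. Among the other clock transcription factors, CIART held 3 E-boxes and TEF 1, and both genes rose, while NR1D1 and NFIL3 rose with no CACGTG in their windows.

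The mRNAs of proteins and enzymes that set the stability and activity of clock proteins were mostly measured as well. Of 14 clock protein regulators, 13 were tested, with 4 called higher and 6 lower, where 28.5% and 31.2% of all tested genes were called. PRKAA2, a catalytic subunit of AMP-activated kinase, which marks cryptochromes for degradation, rose by 3.07 on the log2 scale from 19, 30 and 39 to 193, 173 and 142 counts. Its paralogue PRKAA1 went the other way, from 16.5, 13.4 and 19.8 CPM to 7.71, 8.76 and 9.94 CPM, a log2 fold change of -0.92, or -0.33 with offsets for GC content and length. CSNK2B had a log2 fold change of 1.46, but 27.5% of its exonic bases are shared with genes on the same strand and its count is uncertain. SIRT1, a deacetylase that acts on BMAL1 and PER2, fell by 1.25 on the log2 scale, or by 0.80 with the offsets.

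Of 8 clock cofactors, 7 were called lower and 1, HDAC3, higher, beside 31.2% lower and 28.5% higher among all tested genes. The call on HDAC3 was lost with library size alone and that on NCOR1, called lower, with offsets for GC content and length. SFPQ, which PER complexes recruit, fell by 1.36 on the log2 scale, from 427, 416 and 452 to 171, 166 and 167 CPM. The coactivators EP300 and CREBBP fell by 0.79 and 0.70, and WDR5 by 0.69. Across the other clock transcription factors, regulators and cofactors together, 29 of 33 genes were tested, of which 9 were called higher and 16 lower, with a median log2 fold change of -0.39, beside 28.5% higher, 31.2% lower and a median of -0.01 over all tested genes. With offsets for GC content and length, 10 were called higher and 14 lower (29.6% and 30.5% of all tested genes), and the median was -0.19.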

How the data were processed

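RNA-seq of 3 VC and 3 VHL-KO samples was analysed from the raw count of reads per gene that the authors deposited, without normalization. The submitters' processing notes name Trim Galore, cutadapt, STAR, SAMtools, HTSeq and GRCh38.p13. Strandedness, counting mode and annotation release are not given in the sources used here. Counts were fitted with edgeR 4.0.16 in R 4.3.3 (TMM factors, quasi-likelihood F test, two-sided, BH adjustment) on the 17401 genes reaching 10 reads in 1 or more samples. At 22628246 to 34881739 counts per sample, 3 counts, the upper limit of a count of 0, equal 0.0860 to 0.133 CPM of the raw library size, for counting error only. Gene positions, exon lengths and GC contents came from GENCODE release 44 (GRCh38), which matched 60507 of 60708 identifiers. Promoters came from RefSeq (GRCh38.p14). Ratios used a pseudocount of 0.5.

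The 10 genes and the gene lists were chosen with earlier results of these data known. The text names all 10 genes, VHL, every tested clock transcription factor, cell type markers and the 4 largest changes past the threshold of each other list, except a few genes that are not reported here. Other genes named (EGLN1, EGLN3, PRKAA1, HDAC3, NCOR1, TSC22D3, JUNB, DUSP1, IER2, NR3C1, CREB1, HES4, CA11, SPHK2, BHLHE40-AS1, EGOT, ITPR1-DT, ITPR1 and THRA) were chosen after their values were seen. Alternatives were DESeq2 1.42.0, relative log expression, upper quartile and library size scaling, 2 other filters, each replicate left out, the replicate number as a block, a pseudocount of 5, and offsets per library for GC content and length (natural splines, 5 degrees of freedom) with and without the block. Any true change that runs with GC content is removed by these offsets too. Plots were made in Python 3.11.15 (matplotlib 3.10.9).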

Additional observations from a re-analysis of the deposited data

How the results depend on the processing

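The calls on BHLHE40, CRY1, CRY2 and DBP kept direction and side of the threshold under all 15 alternatives, with log2 fold changes of 1.34 to 1.64, -2.59 to -1.94, 0.71 to 1.01 and 2.38 to 2.79. The number of the 10 genes called lower, 3, was 1 with upper quartile factors and 1 to 4 with a replicate left out. Reversed values were CLOCK at 0.20 and NR1D2 at 0.13 with offsets for GC content and length (0.20 and 0.14 with the offsets and the replicate block), PER1 at 0.015 with upper quartile factors and -0.17 to 0.0033 with a replicate left out, and PER2 at -0.029 with library size alone. The cause was not tested. Deviations of same-numbered samples correlated at 0.055, 0.0018 and 0.018, none over 0.1. VC 1 and VC 3 correlated best with their own number and VC 2 with VHL-KO 3, so a pairing is not shown. With the replicate block, 4847 genes were called higher and 5437 lower, against 4958 and 5436, and no call on the 10 genes changed. With 3 samples a group, 1 knockout line that may be a single clone, and mean VC levels of PER2, PER3, CRY2, NR1D2 and DBP under 10 CPM, a p over the threshold does not show that a gene did not change.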

Other observations

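A short list of genes driven by the clock outside the loop was measured too. Of 8 clock output genes, 6 were called lower and 2 higher, beside 31.2% and 28.5% of all tested genes. NOCT, a deadenylase-related protein with a strongly rhythmic mRNA, had 12.2, 11.9 and 13.2 CPM in VC against 3.78, 4.54 and 5.21 CPM in VHL-KO samples, a log2 fold change of -1.47 (SE 0.17, edgeR BH-adjusted p = 4.61e-08). WEE1, the kinase that holds back entry into mitosis, fell by 1.15 and NAMPT, the rate-limiting enzyme of NAD salvage, by 0.94 on the log2 scale, which with offsets for GC content and length was 0.76 and 0.42. KLF9 rose by 1.38 but from only 11, 18 and 16 counts to 21, 37 and 22 counts, and this call was lost without VHL-KO 2.

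Genes through which serum, glucocorticoids and other signals reach the clock went both ways. Of 12 such genes, 6 were called higher and 2 lower (28.5% and 31.2% of all tested genes). Of the 6 calls, those on JUNB and DUSP1 were lost with offsets for GC content and length, and IER2 was not called higher under 8 of 15 alternatives. Its log2 fold change of 0.27 was -0.17 with the offsets, and with the offsets and the replicate block it was called lower (-0.17, edgeR BH-adjusted p = 0.0384). With the offsets alone, 5 of the 12 genes were called higher and 2 lower, beside 29.6% and 30.5% of all tested genes. NR3C1 (0.11 without and 0.45 with the offsets) and CREB1 (-0.20 and 0.34) were called higher only with them or, for NR3C1, also without VC 3. FKBP5, a glucocorticoid-induced cochaperone, had 338, 281 and 431 counts in VC against 41, 37 and 44 counts in VHL-KO samples, a log2 fold change of -2.54 (SE 0.19, edgeR BH-adjusted p = 5.83e-11). TSC22D3, which glucocorticoids also induce, went the other way, with a log2 fold change of 0.75 (edgeR BH-adjusted p = 2.14e-06) and the same call under all 15 alternatives. The immediate-early genes FOS and EGR1 rose by 1.20 and 0.85 on the log2 scale while FOSB fell by 1.34, with FOS and FOSB at 50 counts or fewer in every sample. Among 10 other genes of the bHLH-Orange family to which BHLHE40 belongs, 5 were tested, with 2 called higher and 1 lower, where 28.5% and 31.2% of all tested genes were called. The median log2 fold change of these 5 genes was 0.30, but -0.36 with offsets for GC content and length, under which HES4 was called lower too (-0.97, edgeR BH-adjusted p = 0.000931). Without VHL-KO 2, 4 of these genes were tested and their median was -0.087. Of the 4, 1 was called higher and 1 lower, beside 4526 and 4983 of all 17216 genes tested without that sample. HEY1 fell by 1.53, from 72, 74 and 107 to 19, 20 and 20 counts. HES1 rose by 0.41, a call lost with library size alone, and HES2, the other gene called higher, had 0, 1 and 8 counts in VC against 9, 17 and 8 in VHL-KO samples. It passed the count filter through VHL-KO 2 alone, was not tested without that sample and lost its call without VC 1. The count of 2 genes called higher and both medians of the 5 genes include HES2, so no conclusion on the family is drawn from them.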
